A study of Mus musculus with 12 samples.

Results

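Hematopoietic stem cells (HSCs) of NrasG12D/+ mice were compared with those of wild-type mice over 14009 genes. These are the genes of 18546 in the deposited table that reached 1 RPKM (a read number divided by gene length and by library depth) in at least 3 of the 6 libraries of these 2 genotypes. The mice were C57BL/6 and 10 to 12 weeks old, and cells of their marrow were sorted as SLAM HSCs: lineage-negative, Sca1-positive and cKit-positive, with CD150 and without CD48. Each genotype had 3 libraries, made from total RNA once ribosomal and mitochondrial transcripts had been taken out. NrasG12D/+ mice carry 1 activated copy of Nras beside a wild-type copy. The sources used here do not give a Cre driver or the number of animals behind a library, so p-values measure the spread between these samples, which may be technical. The series also holds 3 libraries each of Tet2+/- and of NrasG12D/+;Tet2+/- HSCs. They enter the estimate of spread and give a second comparison of the same Nras allele, in which no library is shared with the first.

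Nras is a small GTPase that relays signals from cytokine receptors by binding RAF kinases, which drive the MEK and ERK kinases, and it also feeds into PI3K signaling. The G12D change slows the return of the protein to its inactive state. Active ERK raises D-type cyclins, which open the way to S phase through the RB and E2F proteins, and it also induces its own inhibitors of the Dusp, Sprouty and Spred families. Most HSCs in adult marrow are quiescent, and HSCs share several genes with the megakaryocyte lineage.

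Of the 14009 genes, 10441 reached 1 RPKM in all 6 libraries, while 999 were just inside the limit with exactly 3 libraries and 1010 just outside it with exactly 2. Only 47 genes passed through all 3 Nras libraries and no wild-type library, and 53 through all 3 wild-type libraries alone; these had to differ between the groups. Depth ranged from 19205045 to 36890942 reads in genes. Wild-type replicate 1 and Nras replicate 2 had the most tested genes without a read, 1072 and 763. In both groups replicate 1 was male and replicates 2 and 3 were female by Xist and Y-linked reads. The markers of the gate fitted the label: Kit stood at 64.7 to 86.0 RPKM in the 6 libraries, Slamf1 at 5.26 to 11.3 and Ly6a at 2.21 to 8.32, and Cd48 had no read in 5 libraries and 1.28 RPKM in Nras replicate 3. All 10 HSC genes, among them Procr, Mecom and Hlf, reached 1 RPKM in at least 3 libraries, with a summed level of 147 to 181 RPKM in wild type and 123 to 158 in Nras mutants. Of the granulocyte markers, Elane and Ngp had no read in any of the 6 libraries and Mpo was at most 0.343 RPKM. S100a9, another of them, reached 5.85 RPKM in Nras replicate 1 and 2.84 in wild-type replicate 3. It had no read in wild-type replicate 1 and Nras replicate 2. Nkg7, a T and NK cell marker, stood at 0.238, 0.740 and 2.45 RPKM in wild type. In Nras mutants it stood at 11.1 RPKM, no read and 9.24. Klrb1c, another T and NK cell marker, was not higher in Nras mutants. It had no read in wild-type replicate 1 and 0.838 and 0.820 RPKM in wild-type replicates 2 and 3. In Nras mutants it had no read in replicates 1 and 2 and 0.442 RPKM in replicate 3. Lyz2, a myeloid gene, stood at 75.2 to 109 RPKM in the 6 libraries while Csf1r, a monocyte marker, was at most 0.80.

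Few single genes separated the genotypes past the threshold. In limma's test with Benjamini-Hochberg adjustment over all 14009 genes, 1 gene rose (0.00714% of those tested) and 0 fell. At an unadjusted p under 0.05 there were 468 genes higher in Nras mutants (3.34%) and 351 lower (2.51%), together 5.85%. Groups did not overlap for 776 genes with the Nras libraries above (5.54%) and 643 with them below (4.59%), 10.1% in all. Without any difference between genotypes, a share of about 0.1 would lack overlap and 0.05 would stand under that p. Both totals lie near these shares, so lack of overlap in a single gene is weak evidence of a difference. The median log2 difference over all tested genes was 0.015. With voom on recovered reads 0 genes rose and 859 stood at an unadjusted p under 0.05.

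The targeted gene had overlapping ranges. Nras (ENSMUSG00000027852, mm10 chromosome 3, 103058285 to 103067914) stood at 5.66, 6.13 and 4.95 RPKM in wild type against 5.99, 4.76 and 6.47 in Nras mutants (log2 0.03 ± 0.20 SE, limma adjusted p = 0.991). Reads summed over the gene cannot tell the mutant copy from the wild-type one, and the genotype is unchecked by them. The 1 gene that rose was 1600002K03Rik (ENSMUSG00000035595, chromosome 10, 80172944 to 80175146), a protein-coding locus with no read in any wild-type library and 5.79, 7.52 and 4.35 RPKM in Nras mutants (limma adjusted p = 0.000599). It entered the comparison only through the Nras libraries. All 3 Tet2+/- libraries also held it, at 5.44, 1.21 and 3.41 RPKM, against 3.43, 3.45 and 3.86 in the compound mutants.

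**Figure D1:**
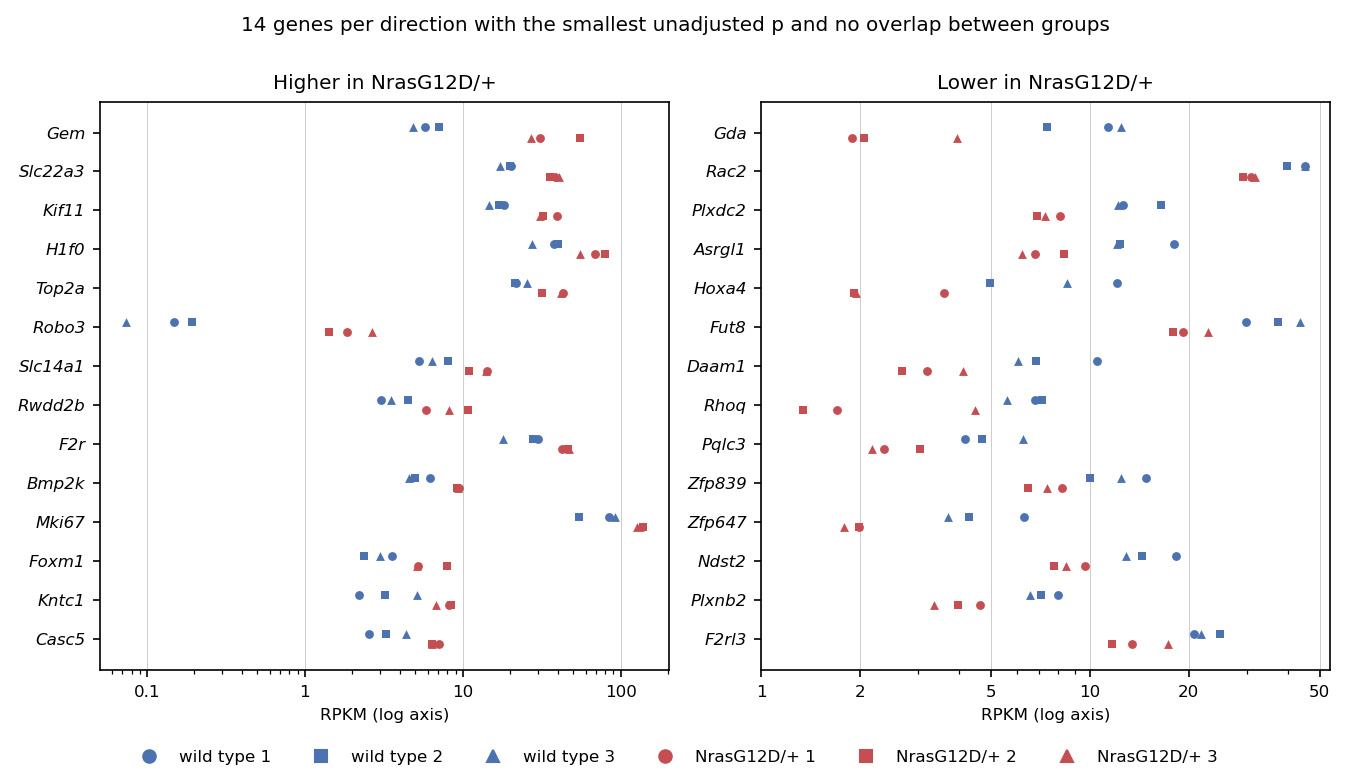
RPKM (log axis) in the 3 wild-type (blue) and 3 NrasG12D/+ (red) libraries, 1 point per library with a marker for each replicate number, for the 14 named genes in each direction with the smallest unadjusted p among genes whose groups do not overlap. Gem and Robo3 show the widest gaps on the left and Gda on the right, while most other genes differ by about 1 on the log2 scale.

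After 1600002K03Rik, the smallest adjusted p was that of Gem, which encodes a small GTPase of the RGK family that inhibits voltage-gated calcium channels. Gem (chromosome 4, 11704457 to 11714752) stood at 5.76, 7.05 and 4.82 RPKM in wild type against 30.8, 55.1 and 27.2 in Nras mutants. Every Nras library lay above every wild-type library, with Nras replicate 2 highest, and the log2 difference was 2.63 ± 0.33 SE (limma adjusted p = 0.0742). It passed without wild-type replicate 2 (limma adjusted p = 0.0373) and without Nras replicate 3 (adjusted p = 0.0256). Those libraries held its highest wild-type value and its lowest Nras value. Gem also passed on the log2(RPKM + 0.5) scale but in no other of the 20 alternatives, where limma's adjusted p reached 0.779. In the 6 other libraries Gem stood at 3.23, 3.39 and 5.95 RPKM in Tet2+/- and 46.5, 38.3 and 28 in compound mutants, a log2 difference of 3.19. Rrad was the other tested RGK gene, at 6.38 RPKM, 3.36 and no read in wild type against 2.26, 3.52 and 2.25 in Nras mutants, so its groups overlapped.

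Slc22a3, an organic cation transporter (chromosome 17, 12418960 to 12507704), stood at 20.2, 19.8 and 17.1 RPKM in wild type against 38.3, 35.5 and 40.9 in Nras mutants, with narrow ranges that did not overlap (log2 1.01 ± 0.16 SE, limma adjusted p = 0.273). The other 3 tested organic cation transporters had overlapping groups. F2r, the thrombin receptor PAR1, stood at 30.0, 27.7 and 17.9 RPKM against 42.5, 46.6 and 46.8, while F2rl3, the thrombin receptor PAR4, stood lower in Nras mutants at 13.4, 11.7 and 17.3 RPKM against 20.8, 24.8 and 21.8. The 2 receptors thus lay apart in opposite directions, and both kept those directions in the other 6 libraries (log2 0.61 and -0.43). Slc14a1, a urea transporter, stood at 5.29, 8.03 and 6.39 RPKM in wild type against 14.2, 11.0 and 14 in Nras mutants. Robo3, a receptor known from axon guidance, passed the minimum only through the Nras libraries, at 0.149, 0.194 and 0.0737 RPKM against 1.85, 1.42 and 2.67. The compound mutants also held more Robo3 than Tet2+/- HSCs, 3.50, 3.25 and 3.06 RPKM against 0.638, 0.446 and 0.180.

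The remaining higher genes of that rule outside the cell cycle were H1f0, Rwdd2b and Bmp2k. H1f0, a linker histone made independently of replication, stood at 37.7, 39.9 and 27.5 RPKM in wild type against 68.4, 80.2 and 55.5 in Nras mutants (log2 0.96 ± 0.17 SE). Rwdd2b stood at 3.02, 4.47 and 3.52 against 5.89, 10.8 and 8.18 RPKM. Rwdd2b alone among the 14 genes had the opposite sign in the other 6 libraries, at log2 -0.55.

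Of the 14 lower genes chosen by unadjusted p, Gda had the largest log2 difference. Gda encodes guanine deaminase, which turns guanine into xanthine (chromosome 19, 21391307 to 21473445), and stood at 11.3, 7.38 and 12.4 RPKM in wild type against 1.89, 2.05 and 3.94 in Nras mutants. The ranges did not overlap, and the log2 difference was -2.03 ± 0.37 SE (limma adjusted p = 0.358). It was -1.99 between compound and Tet2+/- HSCs. Hoxa4, a homeobox gene of the Hoxa cluster, stood at 12.1, 4.96 and 8.52 RPKM against 3.60, 1.91 and 1.94. Its log2 difference was -1.75 here and -0.18 in the other 6 libraries. Fut8, the enzyme that adds core fucose to N-glycans, stood at 29.8, 37.4 and 43.7 RPKM against 19.2, 17.9 and 22.8, and its log2 difference was -0.88 here and -1.05 in the other 6.

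Rac2, a small GTPase of blood cells, stood at 45.0, 39.8 and 45.1 RPKM in wild type against 31.0, 29.2 and 31.7 in Nras mutants, a small difference with a small error (log2 -0.50 ± 0.09 SE, limma adjusted p = 0.358). Rhoq, another small GTPase, stood at 6.79, 7.15 and 5.58 RPKM against 1.71, 1.34 and 4.46. Rhoq fell without Nras replicate 3 (log2 -2.10, limma adjusted p = 0.00561), the library in which it was highest among Nras mutants. Daam1, a formin that assembles actin, stood at 10.5, 6.87 and 6.06 RPKM against 3.20, 2.69 and 4.11, while its log2 difference had the opposite sign between compound and Tet2+/- HSCs, with overlap. Plxnb2, a plexin receptor for semaphorins, stood at 8.02, 7.08 and 6.55 RPKM against 4.62, 3.96 and 3.36, and Plxdc2, a transmembrane protein with a plexin-like domain, at 12.6, 16.4 and 12.2 against 8.10, 6.92 and 7.32. Asrgl1, Pqlc3, Zfp839, Zfp647 and Ndst2 completed the 14 lower genes, with log2 differences of -0.97, -0.99, -0.74, -1.28 and -0.80.

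**Figure D2:**
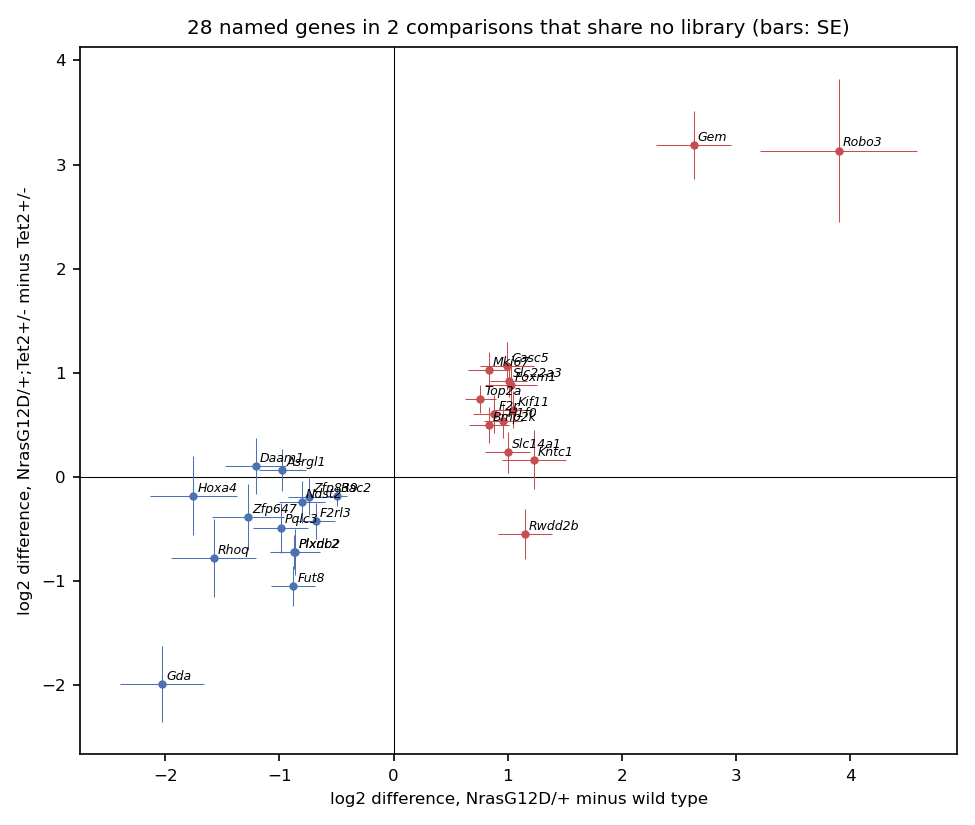
Log2 differences of the 28 named genes between NrasG12D/+ and wild type (horizontal axis) and between NrasG12D/+;Tet2+/- and Tet2+/- (vertical axis), with SE bars, higher genes in red and lower genes in blue. Of the 14 higher genes, 13 lie above 0 on the vertical axis, and of the 14 lower genes 2 do, Daam1 and Asrgl1.

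The same allele was measured again between compound and Tet2+/- HSCs. There, 13 of the 14 higher genes were again higher and 12 of the 14 lower genes again lower. Sex was not balanced in that comparison by Xist and Y-linked reads. Replicates 1 and 3 of Tet2+/- were male and replicate 2 female, while replicate 1 of the compound mutants was male and replicates 2 and 3 female. The part of sex in these values was not tested. Of the 468 genes higher at an unadjusted p under 0.05, 66.5% were also higher in compound than in Tet2+/- HSCs, and of the 351 lower genes 35.3% were, against 47.6% of all tested genes. Across all tested genes the log2 differences of the 2 comparisons had a Pearson r of 0.048. Across the 468 higher genes r was -0.295 and across the 351 lower genes 0.226. Across the 11160 genes with at least 20 reads in each of the 12 libraries r was 0.181. Among these, r was 0.331 for the 390 higher at an unadjusted p under 0.05 and 0.137 for the 283 lower. All are descriptions across genes, which are not independent replicates. The test of the difference between the 2 comparisons (the interaction) passed for 1 gene, 1600002K03Rik.

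Genes of mitosis were mostly higher in Nras mutants, although no member passed adjustment over all genes. Of 33 tested mitotic kinesins and spindle proteins 31 were higher, with a median log2 difference of 0.48, and 14 lay above wild type with no overlap, against 5.54% of all tested genes. Mitotic kinases, cyclins and phosphatases had 18 of 21 higher (median 0.469), kinetochore and checkpoint genes 30 of 37 (0.269), condensin, cohesin and chromosome structure genes 16 of 19 (0.262), and anaphase-promoting complex and cytokinesis genes 21 of 22 (0.362). The median over all tested genes was 0.015. In bulk libraries more cells in division and more RNA per dividing cell cannot be told apart.

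**Figure D3:**
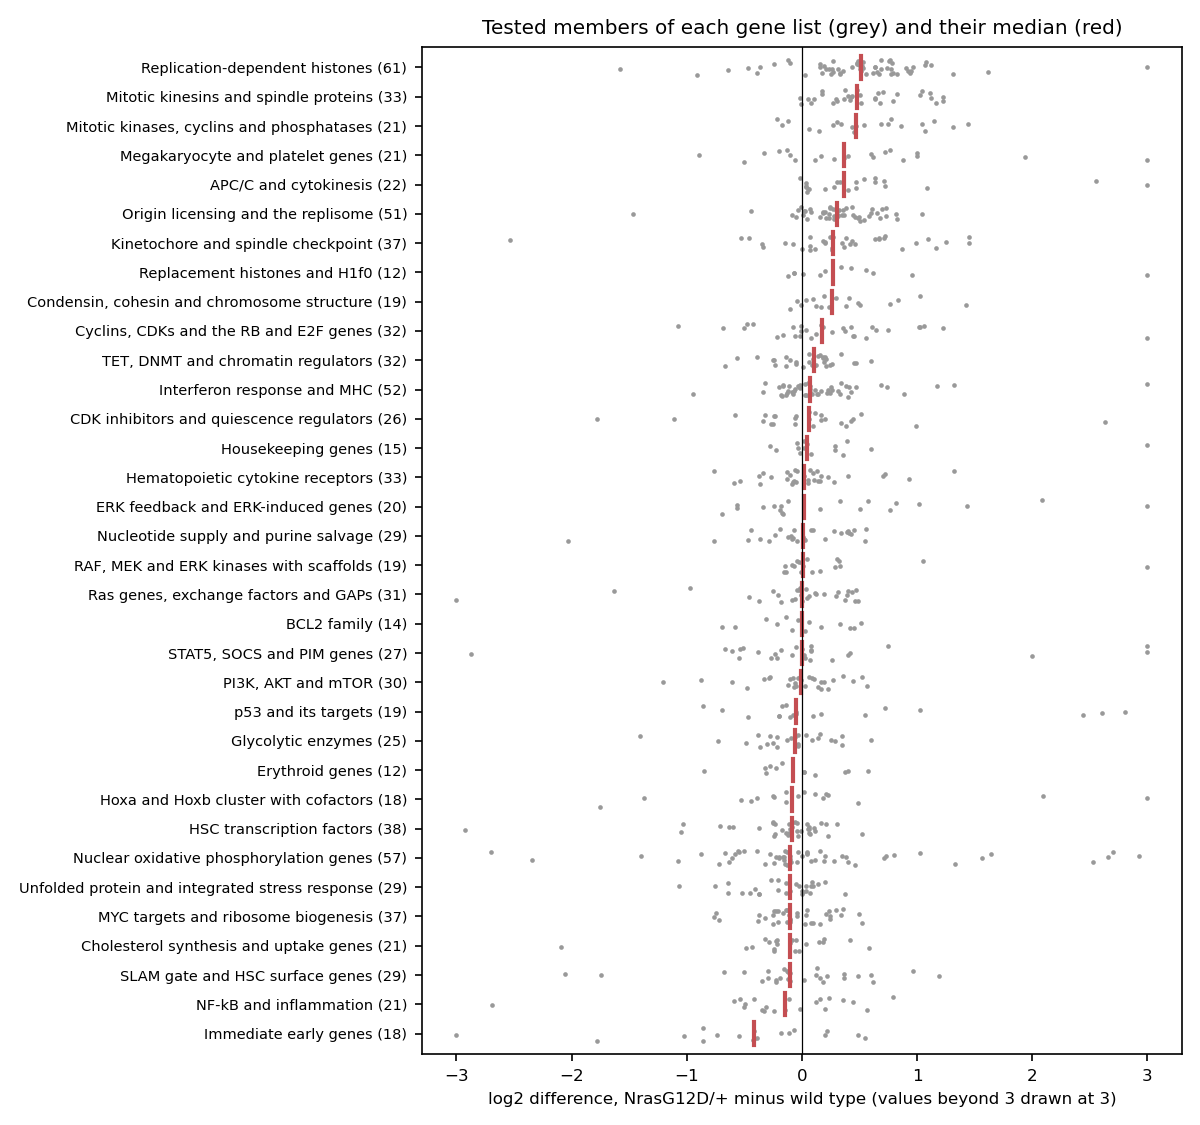
Log2 difference between NrasG12D/+ and wild type for each tested member (grey points) of the 34 lists with at least 10 tested members, and the median of each list (red bar), with the number of tested members in brackets. The 5 mitosis lists stand near the top with medians from 0.262 to 0.48, together with replication-dependent histones (0.51), megakaryocyte genes (0.364), the replisome (0.306) and replacement histones (0.268).

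Kif11, the kinesin that pushes spindle poles apart (chromosome 19, 37376403 to 37421859), stood at 18.3, 17.0 and 14.6 RPKM in wild type against 39.7, 32.2 and 31.1 in Nras mutants. The groups were well apart, and the log2 difference was 1.05 ± 0.18 SE (limma adjusted p = 0.347). Top2a, the topoisomerase that untangles sister chromosomes (chromosome 11, 98992943 to 99024189), stood at 21.8, 21.4 and 25.3 RPKM against 43.3, 31.6 and 42.0. Mki67, the Ki-67 protein that coats mitotic chromosomes, stood at 84.6, 54.9 and 91.6 RPKM against 137, 138 and 127, with wild-type replicate 2 lowest. Each of these 3 genes was also higher in compound than in Tet2+/- HSCs (log2 0.65, 0.75 and 1.02).

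Foxm1, the transcription factor of G2 and mitosis genes, stood at 3.54, 2.37 and 2.99 RPKM in wild type against 5.22, 7.94 and 5.11 in Nras mutants. Cdk1, the kinase that starts mitosis, stood at 2.13, 3.75 and 4.16 RPKM against 6.11, 7.17 and 6.61. Its groups did not overlap (log2 1.04 ± 0.26 SE, limma adjusted p = 0.783). Ccnb1, the cyclin partner of Cdk1, was low and variable, at 1.30, 0.38 and 0.294 RPKM against 1.26, 0.537 and 1.98. Aurka, a spindle pole kinase, stood at 1.73, 2.03 and 1.08 RPKM against 3.47, 4.90 and 2.42, while the groups of Aurkb, the kinase of the chromosomal passenger complex, overlapped. Plk1, another core mitotic kinase, had a log2 difference of 0.06, and its sign changed in 3 of 20 alternatives.

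At the kinetochore, Casc5, the platform protein also named Knl1, stood at 2.56, 3.27 and 4.37 RPKM in wild type against 7.11, 6.37 and 6.37 in Nras mutants. Mad2l1, a spindle checkpoint protein, stood at 1.83, 3.54 and 2.15 RPKM against 5.12, 5 and 5.33, and Ndc80, which binds microtubules, at 12.3, 8.18 and 11.2 against 17.1, 16.9 and 15.9. Kntc1, which recruits dynein to kinetochores, stood at 2.22, 3.20 and 5.15 RPKM against 8.21, 8.43 and 6.80. All 4 had groups that did not overlap, but Casc5, Ndc80 and Kntc1 were named for a small unadjusted p. In the kinetochore and checkpoint list, 8 of 37 tested genes lay above wild type with no overlap, against 5.54% of all tested genes. Kntc1 was counted in the spindle list. Bub1b and Cenpf, other kinetochore genes, had overlapping groups.

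**Figure D4:**
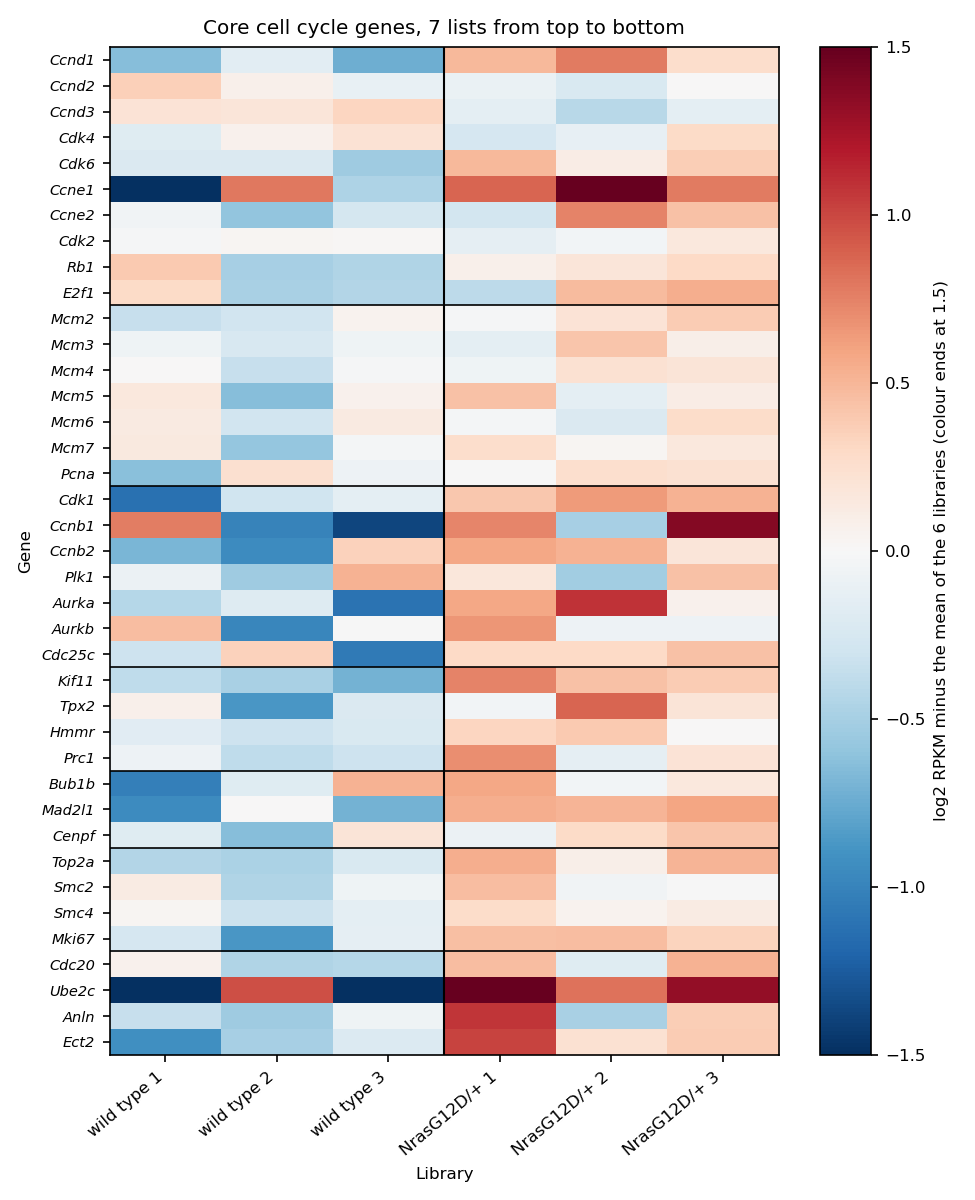
Core members of 7 cell cycle lists (rows, separated by black lines in the order cyclins and E2F, replisome, mitotic kinases, spindle, kinetochore, condensin and chromosome structure, cytokinesis) in the 6 libraries (columns), coloured by log2 RPKM minus the mean of the 6 libraries. Most rows are bluer (lower) in the 3 wild-type columns and redder (higher) in the 3 NrasG12D/+ columns, with exceptions such as Ccnd2 and Ccnd3.

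Wild-type replicate 2 had the lowest level of the 6 libraries in all 5 mitosis lists. Without it, the median of the spindle list was 0.408 with 26 of 33 higher, and that of the mitotic kinases 0.343 with 15 of 21 higher. That of the anaphase-promoting complex and cytokinesis list was then 0.225 with 17 of 22 higher. The kinetochore list had a median of 0.201 without that library, and the condensin, cohesin and chromosome structure list 0.175. Without the 2 libraries with the most genes lacking reads, wild-type replicate 1 and Nras replicate 2, the median of the spindle list was 0.75.

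The promoters of 4 mitosis genes described above are shown for the motifs they hold, and they were chosen after those motifs were seen. Each is the 250 bases before the RefSeq start in the gene's own direction, from GRCm38.p6, at chr19:37376132-37376381 (plus strand) for Kif11, chr11:99024190-99024439 (minus strand) for Top2a, chr10:69352913-69353162 (minus strand) for Cdk1 and chr7:135716380-135716629 (minus strand) for Mki67. Capitals mark the cell cycle homology region (TTTGAA), the CCAAT box (CCAAT) and the E2F motif (TTTCGCGC or TTTGGCGC) on either strand.
Kif11: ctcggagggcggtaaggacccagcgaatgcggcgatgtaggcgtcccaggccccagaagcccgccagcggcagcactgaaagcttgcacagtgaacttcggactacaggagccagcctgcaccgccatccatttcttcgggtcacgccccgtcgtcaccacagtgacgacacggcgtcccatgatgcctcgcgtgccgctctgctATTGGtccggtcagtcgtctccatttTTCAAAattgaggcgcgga
Top2a: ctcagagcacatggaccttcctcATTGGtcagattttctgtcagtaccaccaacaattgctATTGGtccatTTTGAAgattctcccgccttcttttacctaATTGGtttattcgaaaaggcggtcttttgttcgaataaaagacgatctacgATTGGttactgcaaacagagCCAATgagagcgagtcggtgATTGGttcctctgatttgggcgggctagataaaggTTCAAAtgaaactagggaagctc
Cdk1: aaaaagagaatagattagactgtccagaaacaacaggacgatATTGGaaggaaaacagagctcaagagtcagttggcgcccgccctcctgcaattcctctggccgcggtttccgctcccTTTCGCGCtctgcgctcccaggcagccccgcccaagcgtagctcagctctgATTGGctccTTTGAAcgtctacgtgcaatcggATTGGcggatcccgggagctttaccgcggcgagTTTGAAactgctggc
Mki67: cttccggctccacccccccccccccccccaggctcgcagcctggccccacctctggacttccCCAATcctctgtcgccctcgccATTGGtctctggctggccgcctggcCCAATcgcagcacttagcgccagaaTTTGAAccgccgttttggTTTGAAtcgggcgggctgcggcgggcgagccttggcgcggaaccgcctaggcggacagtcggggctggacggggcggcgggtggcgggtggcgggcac

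A search for 5 motifs was made in the 300 bases around the start, on both strands: those 3, the cyclic AMP response element (TGACGTCA) and the AP-1 motif (TGAGTCA or TGACTCA). The search was added after the expression data were seen. Of 111 RefSeq promoters of 102 mitosis genes, 55% held TTTGAA, against 11.9% of the promoters of tested genes and 17.9% of all promoters in the table. CCAAT was in 68.5% of them against 37.8% and 37.4%, TGACGTCA in 7.21% against 3.17% and 1.79%, and the AP-1 motif in 2.70% against 3.32% and 5.2%. The E2F motif was in 4.50% of them against 1.65% and 0.813%, and in 23.6% of 55 promoters of replisome genes. Of the mitosis genes with TTTGAA 55 of 57 were higher in Nras mutants (median log2 0.484), and of those without it 36 of 45 (0.191). Outside the mitosis lists, 530 genes with both TTTGAA and CCAAT had a median of 0.008. Knl1 and Ndc80 held none of the 5 motifs in the 250 bases before their starts, and Aspm, Aurka, Plk1 and Bub1 held CCAAT only, while Kntc1 and Smc2 held both TTTGAA and CCAAT. Letters in a window are a description, and whether any factor bound there was not measured.

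Genes of DNA replication leaned the same way by smaller amounts. Of 51 tested genes of origin licensing and the replisome, 45 were higher (median log2 0.306) and 12 lay above wild type with no overlap, against 5.54% of all tested genes. Tipin, a replication fork protector, stood at 15.6, 31.2 and 35.1 RPKM in wild type against 41.4, 41.3 and 54.2 in Nras mutants, and Cdc7, the kinase that fires origins, at 1.93, 2.27 and 2.60 against 3.46, 3.85 and 3.01. The MCM helicase genes were closer: Mcm2 stood at 46.5, 48.6 and 61.5 RPKM against 58.5, 68.3 and 77.0, which overlapped. Among nucleotide supply and purine salvage genes 15 of 29 were higher, with a median of 0.012.

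Replication-dependent histones had 52 of 61 tested members higher, a median log2 difference of 0.51 and 19 above wild type with no overlap, against 5.54% of all tested genes. Hist1h1b, a linker histone, stood at 44.2, 41.2 and 41.9 RPKM in wild type against 53.6, 104 and 65.8 in Nras mutants, and Hist1h4h, a core histone gene, at 11.7, 10.9 and 9.50 against 32.1, 20.5 and 28.4. These genes have near-identical copies among which reads could be split, so single members are uncertain. Nras replicate 3 had the highest level of this list. Without it the median was 0.347 with 42 of 61 higher. No histone promoter was matched by symbol.

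Cyclins and their kinases were mixed. Of 32 tested members of the cyclin, CDK, RB and E2F list 20 were higher, with a median of 0.175. Ccnd1, the D-type cyclin that ERK induces, stood at 10.5, 14.7 and 9.89 RPKM in wild type against 22.9, 28.1 and 19.7 in Nras mutants. Cdk6, its kinase, stood at 25.6, 25.8 and 20.7 RPKM against 41.8, 32.2 and 38.8, and both had groups that did not overlap (log2 1.02 ± 0.30 SE and 0.64 ± 0.17 SE). Ccnd3, another D-type cyclin, lay lower in Nras mutants, at 4.68, 3.89 and 4.69 RPKM against 5.99, 5.91 and 6.47. Ccnd2, the most abundant of the D cyclins here, had overlapping groups. Among 26 tested CDK inhibitors and quiescence regulators 14 were higher. Cdkn1c, the p57 inhibitor of quiescent HSCs, stood at 5.72, 9.91 and 6.54 RPKM in wild type against 1.52, 4.05 and 5.99 in Nras mutants. Its groups overlapped (log2 -1.11 ± 0.51 SE, limma adjusted p = 0.855).

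The genes that ERK induces to limit itself split into members that stood apart and members that did not. Of 20 tested members of the ERK feedback list, 10 were higher, the median was 0.016 and 7 lay above wild type with no overlap, while 0 lay below, against 5.54% and 4.59% of all tested genes. Dusp6, the cytoplasmic phosphatase of ERK, stood at 17.1, 16.1 and 15.0 RPKM in wild type against 25.0, 38.2 and 23.6 in Nras mutants (log2 0.82 ± 0.22 SE, limma adjusted p = 0.783). Dusp4, a nuclear ERK phosphatase, stood at 1.24, 4.17 and 7.24 RPKM against 15.4, 16.4 and 11.4, and Etv5, an ETS transcription factor, at 1.48, 3.87 and 4.84 against 7.10, 9.56 and 8.12. Spry4, a Sprouty inhibitor, had no read in wild-type replicate 1, 1.08 and 2.08 RPKM in replicates 2 and 3, and 3.18, 4.82 and 2.17 in Nras mutants. Spry1, Spred1, Spred2 and Dusp5 had overlapping groups. Between compound and Tet2+/- HSCs, 9 of the 20 tested members were higher and the median was -0.167. Dusp4 was closer in the other 6 libraries (log2 0.34) than Dusp6 (0.90), a contrast that was not tested.

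Lists of the kinases that carry the signal had medians near 0. Of 31 tested Ras genes, exchange factors and GTPase-activating proteins 16 were higher, of 19 RAF, MEK and ERK kinases and scaffolds 11, and the medians were 0.001 and 0.011. Of 30 PI3K, AKT and mTOR genes 14 were higher, with a median of -0.011 and 4 below wild type with no overlap, against 4.59% of all tested genes. Pik3cd, the PI3K catalytic subunit of blood cells, was one of these, at 6.91, 8.53 and 12.4 RPKM in wild type against 3.93, 4.71 and 6.41 in Nras mutants. Rheb, the GTPase that activates mTOR, was another, at 8.30, 8.18 and 9.81 RPKM in wild type against 6.33, 5.10 and 7.66 in Nras mutants. Both also lay lower in compound than in Tet2+/- HSCs (log2 -0.87 and -0.19).

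Cytokine signaling genes showed single members apart from a flat list. Of 33 tested cytokine receptors 17 were higher (median 0.018). With no overlap, 0 of them lay above wild type and 3 below, against 5.54% and 4.59% of all tested genes. Csf2rb, the common beta receptor for GM-CSF, IL-3 and IL-5, stood lower in Nras mutants at 6.04, 9.77 and 8.36 RPKM against 13.5, 11.3 and 15.9. Socs2, a feedback inhibitor induced by STAT5, stood at 1.76, 1.33 and 1.66 RPKM in wild type against 0.0678, 0.391 and 0.374 in Nras mutants. It passed the minimum only through the wild-type libraries. Both lay lower in compound HSCs as well (log2 -1.04 and -1.51). Socs1 had no read in wild-type replicates 1 and 3 and 1.68 RPKM in replicate 2, against 2.59, 2.67 and 2.26 in Nras mutants, and its sign was opposite in the other 6 libraries.

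Immediate early genes were highest in the libraries numbered 2 in every genotype for most members. Fos, an AP-1 subunit, stood at 24.2, 148 and 50.7 RPKM in wild-type replicates 1, 2 and 3 and at 5.66, 170 and 40.5 in Nras mutants. Jun stood at 34.2, 154 and 86.6 RPKM against 27.6, 174 and 82.2, and Egr1 at 12.9, 46.8 and 11.5 against 0.824, 35.5 and 5.89. Replicate 2 was highest in all 4 genotypes for 12 of 18 tested immediate early genes and for 266 of all tested genes (1.90%). Only 4 of the 18 were higher in Nras mutants and the median was -0.417, but without Nras replicate 1 it was 0.163. The labels do not say what replicates of 1 number share, and the part of handling in these values was not tested.

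**Figure D5:**
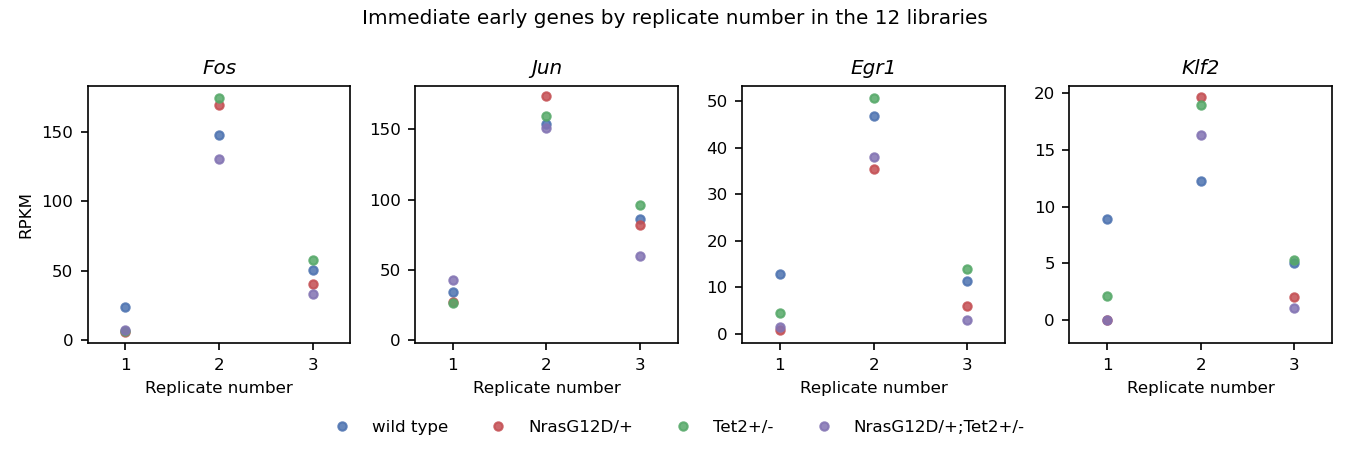
RPKM of Fos, Jun, Egr1 and Klf2 (linear axes) in each of the 12 libraries by replicate number, coloured by genotype. All 4 genotypes are highest in replicate 2 for each gene, and for Fos the replicate 2 libraries lie between 130 and 174 RPKM, above every other library.

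HSC identity genes had medians slightly below 0. Of 38 tested HSC transcription factors 13 were higher, with a median of -0.087, and of 29 surface genes 13 were higher, with a median of -0.107 that changed sign in some settings. The median of the transcription factors was -0.0242 without Nras replicate 3 and -0.0262 without wild-type replicate 2. Mecom, Meis1, Runx1 and Hlf had overlapping groups. Gata2, a zinc finger factor of HSCs and of the megakaryocyte and mast cell lineages, lay above wild type at 67.1, 76.4 and 56.3 RPKM against 47.3, 47.8 and 43.4 (log2 0.52 ± 0.14 SE, limma adjusted p = 0.783). Cebpb, a factor of emergency myelopoiesis, lay below at 5.52, 5.18 and 3.86 RPKM against 6.32, 14 and 11.1. Fgd5, an HSC reporter gene, lay lower in Nras mutants, at 8.48, 9.92 and 5.60 RPKM against 11.3, 15.2 and 11.2 in wild type. Ly6a, the Sca1 antigen of the gate, lay higher in Nras mutants, at 5.51, 8.32 and 7.04 RPKM against 2.21, 3.96 and 4.96 in wild type.

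Megakaryocyte and platelet genes had 14 of 21 tested members higher, a median of 0.364 and 9 above wild type with no overlap, while 1 lay below, against 5.54% and 4.59% of all tested genes. Rgs18, a regulator of platelet receptor signaling, stood at 41.0, 70.8 and 70.9 RPKM in wild type against 100, 95.3 and 106 in Nras mutants. Pf4, platelet factor 4, stood at 1.84, 2.57 and 2.71 RPKM against 5.28, 7.85 and 17.4, and Itga2b, the integrin CD41, at 13.0, 9.90 and 10.4 against 13.5, 16.9 and 21.1. Vwf, a marker of platelet-biased HSCs, went the other way, at 3.53, 4.71 and 5.11 RPKM against 2.12, 2.55 and 5.56, with overlap. The 4 megakaryocyte markers Pf4, Itga2b, Gp1bb and Vwf summed to 17.5 to 18.4 RPKM in wild type and 20.9 to 45.6 in Nras mutants, 3 of the 4 reaching 1 RPKM in at least 3 libraries. Gp1bb, a platelet glycoprotein, had no read in 3 libraries, wild-type replicates 1 and 3 and Nras replicate 1. More RNA of these genes in HSCs and a few cells of that lineage in the sort cannot be told apart. The median was 0.195 without wild-type replicate 1 and Nras replicate 2.

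Genes of other mature lineages were divided, with 4 of 9 tested granulocyte and monocyte genes, 6 of 12 erythroid genes and 3 of 7 lymphoid genes higher. Mast cell markers summed to 43.4 to 47.8 RPKM in wild type and 56.8 to 79.5 in Nras mutants, nearly all of it Gata2. Cpa3, a mast cell protease, had no read in wild type and 1.16, 3.04 and 0.525 RPKM in Nras mutants. It did not reach the minimum and was not tested. Mitf and Srgn, tested with Gata2 in the mast cell list, had log2 differences of 0.125 and -0.178.

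Interferon and metabolic lists held single genes apart. Of 52 tested interferon and MHC genes 32 were higher (median 0.069). With no overlap, 4 of them lay above wild type and 2 below, against 5.54% and 4.59% of all tested genes. The median was 0.181 without Nras replicate 1, 0.0267 without Nras replicate 2 and -0.0212 without wild-type replicate 1 and Nras replicate 2 together. Usp18, an inhibitor of interferon signaling, stood at 4.75, 5.26 and 4.65 RPKM in wild type against 9.78, 11.5 and 11.9 in Nras mutants, and Ifitm1, a membrane protein, lower at 9.12, 23.2 and 22.5 against 33.4, 34.6 and 29.5. Between compound and Tet2+/- HSCs the log2 difference was -0.16 for Usp18 and -1.27 for Ifitm1. Hk3, a hexokinase of blood cells, stood at 5.38, 3.16 and 3.66 RPKM in wild type against 2.12, 0.909 and 1.72 in Nras mutants. Aldoa, the glycolytic aldolase, stood at 17.3, 14.8 and 15.3 RPKM in wild type against 12.1, 12.1 and 12.2 in Nras mutants. Both thus lay lower in Nras mutants, in a list with 9 of 25 members higher and a median of -0.059. In that list 0 members lay above wild type and 2 below with no overlap. Asns, asparagine synthetase, also lay lower, at 3.04, 2.13 and 2.54 RPKM in wild type against 1.23, 1.19 and 1.21 in Nras mutants. Bcl2, the survival protein, lay above wild type at 18.7, 15.2 and 20.5 RPKM against 12.0, 12.2 and 13.7, and also in compound HSCs (log2 0.58).

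Chromatin, growth and stress lists had medians between -0.145 and 0.101. They were 0.101 for TET, DNMT and chromatin regulators, -0.103 for MYC targets and ribosome biogenesis, -0.1 for nuclear oxidative phosphorylation genes, -0.106 for cholesterol synthesis, -0.101 for the unfolded protein and integrated stress response, -0.055 for p53 and its targets and -0.145 for NF-kB and inflammation. The cholesterol median moved to -0.428 when replicate 3 of wild type was left out and to 0.0336 when replicate 2 was. Mbd1, a methyl-CpG binding protein, was the member of these lists with the smallest unadjusted p, at 26.8, 28.2 and 25.1 RPKM in wild type against 37.0, 39.2 and 33.5 in Nras mutants. Tet2 and Dnmt3a, genes mutated in myeloid disease, had log2 differences of 0.19 and -0.14. Housekeeping genes had 10 of 15 higher and a median of 0.047.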

How the data were processed

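RNA of SLAM HSCs was measured in 12 libraries of 4 genotypes, 3 each, grouped by the labels. The authors deposited 1 table of log2 RPKM and no counts. Tools of the authors, per the submitters' processing notes and with no role given, were TopHat2, edgeR and CASAVA 1.8.2, and their build was mm10. Whole reads were recovered from the deposited log2 values for all 18546 genes, to a tolerance of 0.001 reads, with a prior of about 0.25 reads per library. Depth was 19205045 to 36890942 reads in genes.

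On the log2 scale, limma 3.58.1 (R 4.3.3) was run over all 12 libraries with 1 mean per genotype, a variance trend and 8 residual degrees of freedom. Tests were two-sided, with Benjamini-Hochberg adjustment over 14009 genes and a threshold of 0.05. For 3 libraries against 3 the smallest exact p is 0.1. Fold changes are on the log2 RPKM scale with that prior. Where a gene had no read in a library, the fitted size depends on the prior and can be large. For Socs1 the log2 difference was 5.83 in the main fit and 1.33 to 8.46 in the alternatives. For Spry4 it was 4.31 in the main fit and 0.807 to 6.15 in the alternatives. The script was tested on simulated data.

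The members, the 41 gene lists and the tests were chosen with earlier results of these data known. The lists were written from general knowledge and described by counts and medians, with no set test. Named were Nras, genes past the threshold, the 14 genes per direction of smallest unadjusted p whose groups did not overlap (leaving out clone-based and small-RNA names), and, in each list, core members and up to 4 members with the smallest p. The cell type markers came from a list written with the gene lists, and motifs, printed promoters and other genes named outside that rule were chosen after values were seen. Lists of under 5 tested members have no summary of alternatives. Coordinates came from GENCODE M21, where 13114 tested symbols matched 1 gene, and promoters from RefSeq GRCm38.p6, where 8276 tested symbols matched. Alternatives covered the minimum, scale, normalization, libraries in the fit, replicate block, sex, weights, variance trend, voom and each library left out. Over all tested genes, same-numbered wild-type and Nras libraries had deviations correlated at 0.011, -0.119 and 0.063, and numbers were not taken as pairs in the main fit. Over the 11160 genes with at least 20 reads in all 12 libraries, the correlations were 0.0525, 0.0398 and 0.0855. Whether same-numbered libraries form pairs is thus unsettled, and the replicate block was run as an alternative.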

Additional observations from a re-analysis of the deposited data

Results flagged for a closer look

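The difference between NrasG12D/+ and control HSCs varied with the Tet2 genotype past the threshold for 1 gene, 1600002K03Rik. This gene reached the minimum only through the Nras libraries, the group in which it was high, so it had to differ from wild type and the test is limited by that choice. The interaction, the difference in Tet2+/- mice minus that in Tet2 wild-type mice, was -8.47 on the log2 scale and passed limma's test with adjustment over all 14009 genes (adjusted p = 0.0232). All 3 wild-type libraries had no read of this gene, while each of the other 9 libraries had at least 1.21 RPKM, so the fitted size depends on the prior of 0.25 reads. Without wild-type reads no fold can be given beyond a bound, and taking 3 reads per library as the floor, the Nras libraries were at least 33.5-fold higher. The cause was not tested.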

How the results depend on the processing

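The count of genes that rose was 1 and became 3 on the log2(RPKM + 0.5) scale and without a variance trend. It was 0 on the log2(RPKM + 1) scale, after quantile normalization, with only the 6 libraries compared, with a replicate block on those 6 (added after seeing the data) and with voom. Leaving out 1 library gave 1 to 14 genes that rose and 0 to 11 that fell. The 14 came without wild-type replicate 2, the 11 without Nras replicate 3, and 2 rose without wild-type replicate 3 or Nras replicate 3. Genes at an unadjusted p under 0.05 numbered 819, and 539 with only the 6 libraries, 543 without wild-type replicate 1 and Nras replicate 2 together, and 610 to 1127 with 1 library left out. With a replicate block over all 12 libraries 1 gene rose, 0 fell and 864 stood under 0.05, so the block changed no call. Same-numbered libraries did not correlate best with each other over all tested genes, but did over the 11160 genes with at least 20 reads in all 12 (0.052, 0.040 and 0.086). The cause of each change was not tested, except that the 6-library fit has 4 residual degrees of freedom.

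The medians of the 5 mitosis lists, the replisome, replication-dependent histones, replacement histones, cyclins and megakaryocyte genes stayed above 0 in every setting. Library quality weights gave medians of 0.778 for mitotic kinases, 0.723 for mitotic kinesins, 0.108 for nucleotide supply, 0.0029 for SLAM gate and HSC surface genes, 0.062 for oxidative phosphorylation and -0.0159 for MYC targets. Quantile normalization gave -0.277 for granulocyte and monocyte genes, and voom 0.0508 for lymphoid genes. Without wild-type replicate 1 and Nras replicate 2 together the medians were 0.348 for cyclins, -0.11 for CDK inhibitors, 0.75 for mitotic kinesins, 0.0728 for SLAM gate genes, 0.0111 for NF-kB, -0.252 for granulocyte and monocyte genes, 0.195 for megakaryocyte genes and 0.0788 for lymphoid genes.

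With 1 library left out, medians ranged from 0.114 to 0.302 for cyclins, 0.205 to 0.378 for replacement histones, 0.225 to 0.456 for the anaphase-promoting complex and cytokinesis, 0.268 to 0.542 for megakaryocyte genes and 0.408 to 0.633 for mitotic kinesins. Medians of the other mitosis lists ranged from 0.343 to 0.725 for mitotic kinases, 0.201 to 0.385 for kinetochore genes and 0.175 to 0.33 for condensin and cohesin genes. They ranged from -0.0202 to 0.0964 for Ras genes, -0.0984 to 0.316 for ERK feedback, -0.0829 to 0.104 for CDK inhibitors, -0.108 to 0.116 for nucleotide supply and -0.0801 to 0.0454 for SLAM gate genes. The ranges were -0.117 to 0.033 for STAT5 genes, -0.00164 to 0.0978 for chromatin regulators, -0.246 to -0.0632 for NF-kB, -0.168 to 0.0928 for granulocyte and monocyte genes and -0.365 to 0.0187 for lymphoid genes. They were -0.124 to -0.0257 for glycolysis, -0.144 to 0.0826 for oxidative phosphorylation, -0.168 to -0.00577 for MYC targets, -0.0752 to 0.215 for p53, -0.176 to 0.182 for the BCL2 family and -0.0329 to 0.147 for housekeeping genes. Other ranges were -0.428 to 0.0336 for cholesterol synthesis, 0.0267 to 0.181 for interferon genes, -0.116 to -0.0242 for HSC transcription factors, -0.153 to -0.00917 for the unfolded protein response, -0.0628 to 0.0109 for Hox genes, -0.0769 to 0.0608 for cytokine receptors, -0.193 to 0.0702 for erythroid genes, -0.0156 to 0.0231 for PI3K genes, 0.000557 to 0.0787 for RAF, MEK and ERK kinases and -0.909 to 0.163 for immediate early genes.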
